A study of Mus musculus with 6 samples.

Results

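A set of 10 genes of iron storage and heme handling was followed in bone marrow-derived macrophages (BMDMs) of WT and PYK2 KO mice. They were chosen by gene symbol, as genes whose products store iron (Fth1, Ftl1), release it from ferritin (Ncoa4), degrade heme or reduce its breakdown products (Hmox1, Blvrb), move iron or heme across membranes (Slc40a1, Slc11a1, Slc48a1, Tfrc) or bind transcripts of iron handling to control them (Ireb2). All 10 are among the 55291 genes of the count table, and all 10 were among the 9815 genes with enough counts to be tested. PYK2, encoded by Ptk2b, is a non-receptor tyrosine kinase related to FAK. RNA-seq compared cells of 3 WT and 3 PYK2 KO mice, both labelled C57BL/6, to describe the transcriptome of macrophages without PYK2. Marrow cells were cultured for 7 days in medium with fetal bovine serum and L929-conditioned medium as a source of M-CSF. RNA was then taken with no further cytokine added. The knockout was in the whole animal and not in macrophages alone, and neither the age and sex of these mice nor the iron content of the medium is given in the sources used here.

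Macrophages take in iron mainly as transferrin and as the heme of engulfed red cells. Heme oxygenase opens the heme ring and frees the iron, which is either stored in the ferritin shell or exported by ferroportin. Iron regulatory proteins bind short hairpins in the untranslated ends of mRNAs, the iron-responsive elements. When iron is scarce they block translation of ferritin and ferroportin mRNAs, whose hairpins lie in the 5′ UTR, and protect the transferrin receptor mRNA, whose hairpins lie in the 3′ UTR, from degradation. Transcript counts therefore bear on transferrin receptor regulation more directly than on ferritin, whose protein level can move with no change in mRNA.

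The hairpins of Fth1, Ftl1, Slc40a1 and Tfrc are shown first. The pattern searched is that of the iron-responsive elements, which ferritin, ferroportin and transferrin receptor mRNAs are known to carry. Matches in these genes were therefore set in advance and are no independent result. A hairpin was searched as a C, 5 bases, the loop letters CAGTGN and 5 bases that pair with the first 5 (17 bases in all, with G-T pairs allowed), on the transcript strand of the UTRs of GENCODE M21 protein-coding transcripts (GRCm38). It was found in the 5′ UTR of Fth1, Ftl1 and Slc40a1, which is 3 of the 10 genes, against 0.148% of all genes with an annotated 5′ UTR. In the 3′ UTR it was found in 1 of the 10 genes, Tfrc, at 4 places, against 0.613% of all genes with an annotated 3′ UTR. Of 78 other iron and heme genes followed below, only Alas2 (5′ UTR) and Bola3 (3′ UTR) held it. Each site is printed as 29 bases of the transcript, 5′ to 3′, with the 6 loop bases in capitals. The sites lie at chr19:9982732-9982760 on the plus strand for Fth1, chr7:45459779-45459807 on the minus strand for Ftl1, chr1:45925465-45925493 on the minus strand for Slc40a1 and chr16:32631219-32631247 on the plus strand for the first of Tfrc.
Fth1: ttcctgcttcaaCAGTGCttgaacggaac
Ftl1: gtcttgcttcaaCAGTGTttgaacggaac
Slc40a1: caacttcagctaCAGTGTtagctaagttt
Tfrc: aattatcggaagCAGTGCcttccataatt
The hairpins of the ferritin genes were identical at 16 of 17 positions, while that of Slc40a1 shared 10 with Fth1 and 11 with Ftl1. A match of letters describes the sequence and is no measure of binding.

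Each library held between 2857097 and 3917207 counts. Ptk2b was at 188 to 199 CPM (TMM-scaled, that is, counts after correction for depth and composition of the library) in WT and 20.6 to 22.8 CPM in PYK2 KO libraries, so the labels matched the deleted gene. All 8 macrophage markers listed (Adgre1, Csf1r, Cd68, Lyz2 and others) passed the filter, with log2 fold changes above 0 in 4 and below 0 in 4. Their summed level, in unscaled CPM, ranged over 29136 to 29378 for WT and 30303 to 30976 for PYK2 KO libraries, and most of it came from Lyz2 (TMM-scaled mean of 24068 CPM in WT, log2 fold change 0.08). Of 9 erythroid markers none passed, and the globins Hba-a1, Hba-a2, Hbb-bs and Hbb-bt as well as Slc4a1 had 0 counts in all 6 libraries. The list sums to at most 0.905 CPM, so defining transcripts of red cell precursors, which also express Tfrc, Ncoa4 and Blvrb, were at or near 0 here. Markers of dendritic, T and stromal cells summed to at most 1.40 CPM, and those of B cells to between 13.5 and 23.2 CPM, with Cd79a and Ms4a1 at 0 counts. The libraries also differed apart from genotype. B2m, the light chain of MHC class I, was at 971 CPM in WT library 1 and at 1046 and 1521 CPM in PYK2 KO libraries 3 and 4, but at 213 to 523 CPM in WT libraries 5 and 6 and PYK2 KO library 2. This division is found in no label.

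In the comparison of genotypes, none of the 10 genes passed an adjusted p-value of 0.05 in edgeR's quasi-likelihood test, against 0.255% of all genes tested (11 higher and 14 lower in PYK2 KO BMDMs). At an unadjusted p-value under 0.05 the count was also 0 of 10, against 6.03% of all genes. DESeq2 and limma voom each called 0 of the 10 as well. Fitted log2 fold changes were above 0 in 5 and below 0 in 5, from -0.16 for Slc48a1 to 0.25 for Slc40a1, with a median of 0.0041 against 0.0019 over all genes tested. Their median size was 0.065 on the log2 scale, against 0.10 over all genes. Several of the 10 have high counts (Fth1 ranks 1 and Ftl1 6 in mean CPM), and sizes were not compared at like counts. The 95% intervals ran from 0.870 to 1.02 times WT for Fth1, the narrowest, to 0.538 to 1.79 times WT for Tfrc, the widest. In bulk RNA, fewer cells that express a gene and less RNA per cell cannot be told apart.

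**Figure D1:**
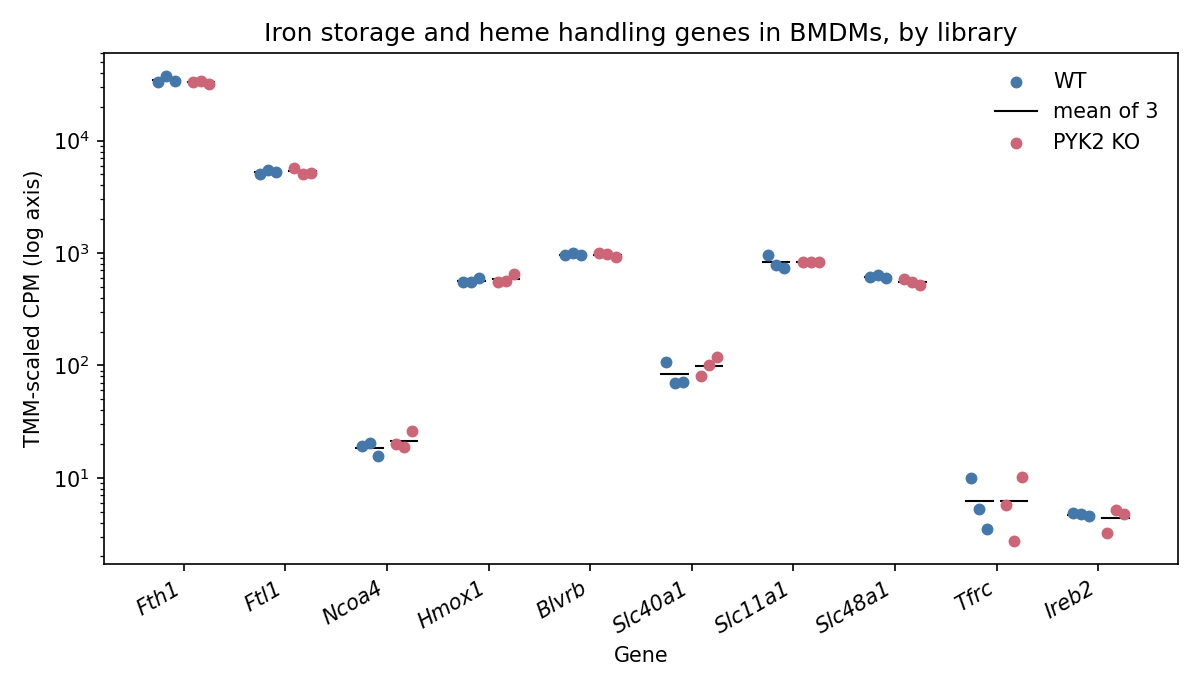
TMM-scaled CPM (log axis) of the 10 genes in the 3 WT and 3 PYK2 KO libraries, 1 point per library, with the mean of each genotype as a line. The levels span from 34912 CPM (WT mean) for Fth1 to 4.72 CPM for Ireb2, and the genotypes overlap in every gene but Slc48a1.

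Ferritin heavy chain, encoded by Fth1 (chromosome 19, 9980598 to 9985098), carries the ferroxidase centre that oxidizes iron on its way into the shell. It received 130420, 133620 and 97078 counts for WT 1, 5 and 6 and 103950, 97777 and 106049 for PYK2 KO 2, 3 and 4. It held the most counts of all genes tested, 3.46% ± 0.177 of the library in WT and 3.29% ± 0.0921 in PYK2 KO cells (SD, n = 3 per genotype). After scaling the WT libraries had 33307, 37402 and 34026 CPM and the PYK2 KO libraries 33349, 33869 and 31607 CPM. WT library 5 was the highest and PYK2 KO library 4 the lowest, and the other 4 lay between 33307 and 34026 CPM, so that the genotypes overlapped. The log2 fold change was -0.08 (standard error 0.055, 95% interval -0.20 to 0.03, adjusted p = 0.912 in edgeR), so a level below 0.870 or above 1.02 times WT lies outside the interval. Counting error was 0.291% of the level in WT and 0.312% in PYK2 KO BMDMs, while the mice differed by 6.26% and 3.60% (coefficient of variation).

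Ftl1 (chromosome 7, 45457944 to 45459884) encodes the light chain, which favours formation of the iron core and has no ferroxidase centre. It had the sixth highest mean CPM. The WT libraries had 19961, 19580 and 14854 counts and the PYK2 KO libraries 17959, 14485 and 17384. On the CPM scale this was 5098, 5481 and 5206 for WT and 5762, 5017 and 5181 for PYK2 KO. PYK2 KO libraries gave both the highest and the lowest value, with all WT values between them. Its log2 fold change was 0.02 (standard error 0.069, 95% interval -0.13 to 0.16, adjusted p = 0.994 in edgeR).

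Within a library the counts of the heavy and light chain can be set against each other without any scaling. The ratio of Fth1 to Ftl1 counts was 6.53, 6.82 and 6.54 in the WT libraries and 5.79, 6.75 and 6.10 in the PYK2 KO libraries. Libraries 2 and 4 of the PYK2 KO mice were below all WT values, while library 3 was above 2 of them. The mean log2 ratio was 2.73 ± 0.036 in WT and 2.63 ± 0.11 for PYK2 KO cells (SD, n = 3 per genotype), a difference of -0.10 (two-sided exact permutation test, p = 0.3, where 3 against 3 mice can give 0.1 at the least). The libraries sequence 3′ ends, so counts were not divided by transcript length and the ratio is one of counts, not of molecules. Ferritin genes have many processed copies in the genome, and some reads may be split among them. The processed copy Ftl1-ps1 had 366, 79 and 316 counts in WT and 100, 380 and 181 in PYK2 KO libraries, which is between 0.403% and 2.62% of the Ftl1 counts, and Fth-ps3 had at most 0.151% of the Fth1 counts.

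NCOA4 is the receptor that carries ferritin to the lysosome for release of its iron. Ncoa4 (chromosome 14, 32159865 to 32179855) had 75, 73 and 45 counts in WT and 62, 54 and 87 in PYK2 KO libraries, or 18.5 ± 2.41 CPM for WT and 21.5 ± 3.87 CPM for PYK2 KO cells (SD, n = 3 per genotype). PYK2 KO library 4 was the highest at 25.9 CPM and WT library 6 the lowest at 15.8 CPM, with the remaining 4 between 18.7 and 20.4 CPM. Its log2 fold change of 0.22 (standard error 0.17, 95% interval -0.15 to 0.59, adjusted p = 0.935 in edgeR) was within the spread between mice. Counting error was 12.8% of the level in WT and 12.4% in PYK2 KO BMDMs, while the mice differed by 13.0% and 18.0%. Ncoa4 lies on the same chromosome as the deleted gene, Ptk2b, which spans 66153257 to 66281052.

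Heme oxygenase 1, encoded by Hmox1 (chromosome 8, 75093621 to 75100589), turns heme into biliverdin, iron and carbon monoxide, and its gene is induced by heme itself and by oxidative stress. It had 2177, 1985 and 1704 counts in WT and 1709, 1641 and 2168 in PYK2 KO libraries. The levels were 556, 556 and 597 CPM for WT and 548, 568 and 646 CPM for PYK2 KO BMDMs, with PYK2 KO libraries at both ends of the range. The log2 fold change was 0.05 (standard error 0.085, 95% interval -0.13 to 0.23, adjusted p = 0.984 in edgeR).

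Biliverdin reductase B, encoded by Blvrb (chromosome 7, 27447978 to 27466144), reduces flavins and the beta isomer of biliverdin. The alpha isomer, which heme oxygenase makes, is reduced by the product of another gene, Blvra, which was at 258 CPM for WT and 256 CPM for PYK2 KO BMDMs (log2 fold change -0.01, not past the test) and was named after its values were seen. Blvrb varied least between libraries of the 10 genes, with a highest value 1.09 times the lowest. It was at 955, 996 and 956 CPM for WT and 1006, 978 and 919 CPM for PYK2 KO BMDMs, from 2727 to 3739 counts per library. Its log2 fold change was -0.0017 (standard error 0.075, 95% interval -0.16 to 0.16, adjusted p = 0.999 in edgeR). Per library, Hmox1 had 58.2, 55.8 and 62.5 counts for every 100 of Blvrb in WT and 54.5, 58.1 and 70.3 in PYK2 KO BMDMs, and the genotypes overlapped (difference in mean log2 ratio 0.04, two-sided exact permutation test, p = 0.9).

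Of the 4 transporters, Slc48a1 was the only one of the 10 genes whose genotypes did not overlap. Slc48a1 (chromosome 15, 97778520 to 97792692) encodes HRG1, which passes heme from the phagolysosome to the cytosol after red cells are digested. It had 2418, 2259 and 1723 counts in WT and 1816, 1599 and 1736 in PYK2 KO libraries. The levels were 618, 632 and 604 CPM for WT and 583, 554 and 517 CPM for PYK2 KO BMDMs, so that each PYK2 KO value lay below each WT value. Means were 618 ± 14.2 and 551 ± 32.7 CPM (SD, n = 3 per genotype), or 0.892 times WT with a 95% interval of 0.794 to 1.002. The log2 fold change of -0.16 (standard error 0.079, unadjusted p = 0.0534, adjusted p = 0.838 in edgeR) did not pass either threshold. Genotypes did not overlap in 10.2% of all genes tested, and 1 of 10 is near that background.

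Slc40a1 (chromosome 1, 45908068 to 45926523) encodes ferroportin, the known exporter of iron from cells. It received 424, 249 and 204 counts in WT and 249, 289 and 397 in PYK2 KO libraries. In CPM this was 108, 69.7 and 71.5 in WT and 79.9, 100.1 and 118 in PYK2 KO BMDMs. WT library 1 lay with PYK2 KO libraries 3 and 4 at the upper end, and PYK2 KO library 2 with WT libraries 5 and 6 at the lower. The fitted log2 fold change of 0.25 (standard error 0.16, 95% interval -0.09 to 0.59, adjusted p = 0.912 in edgeR) was the largest of the 10 genes and was within the spread between mice, which was 26.2% of the level in WT against a counting error of 6.13%.

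The upper 3 libraries in Slc40a1 were the same 3 that had the most B2m. Slc40a1 was at 100.1 to 118 CPM in those 3 and 69.7 to 79.9 CPM in the others. Ftl1 (5017 to 5181 against 5206 to 5762 CPM) and Ireb2 (4.77 to 5.20 against 3.21 to 4.76 CPM) were parted the same way, Ftl1 with the lower values in the high B2m libraries. For Ireb2 the nearest values of the 2 sides, 4.77 and 4.76 CPM, came from 16 and 17 counts and differed by far less than counting error. By the same rule 3 of the 10 genes, Ireb2 among them, were parted this way, against 14.2% of all genes tested. That share leaves out no near ties, and whether 3 of 10 exceeds it was not tested. With the side of B2m as a covariate, a grouping taken from these counts and not from the labels, the log2 fold change of Slc40a1 was 0.09, and without WT library 1 it was 0.50 (adjusted p = 0.280 in edgeR). The part of whatever parts the libraries in the difference between genotypes was not tested.

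**Figure D2:**
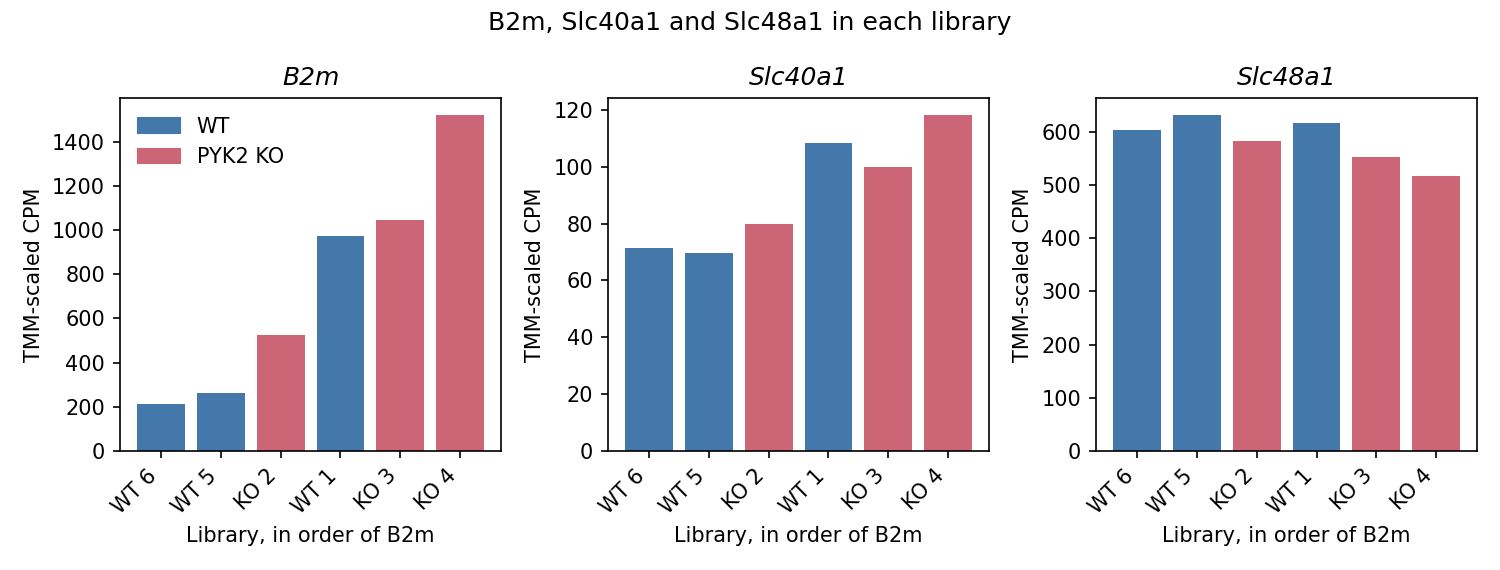
TMM-scaled CPM of B2m, Slc40a1 and Slc48a1 in each library (1 bar per library, colored by genotype), with the libraries in order of B2m. The 3 libraries with the most B2m, WT 1 and PYK2 KO 3 and 4, have the 3 highest Slc40a1 values (100.1 to 118 CPM), whereas in Slc48a1 the PYK2 KO bars lie below the WT bars.

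Slc11a1 (chromosome 1, 74375195 to 74386062) encodes NRAMP1, which moves divalent metal ions across the phagosome membrane, and C57BL/6 mice are known to carry an allele of it with little function. It had 2102 to 3771 counts per library. Levels were 963, 788 and 737 CPM for WT and 837, 837 and 832 CPM for PYK2 KO BMDMs, so that all PYK2 KO values lay inside the WT range. The 3 PYK2 KO values differed by 0.334% (coefficient of variation), less than the 1.96% of counting error, and those of WT by 14.3%. The log2 fold change was 0.0099 (standard error 0.094, 95% interval -0.19 to 0.21, adjusted p = 0.997 in edgeR). For every 100 counts of Slc11a1 there were 11.2, 8.85 and 9.71 of Slc40a1 in WT and 9.55, 12.0 and 14.2 in PYK2 KO libraries (difference in mean log2 ratio 0.25, two-sided exact permutation test, p = 0.3).

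Tfrc and Ireb2, the genes that bear most on iron sensing, were the least well measured. Tfrc (chromosome 16, 32608920 to 32632794) encodes the transferrin receptor and had 39, 19 and 10 counts in WT and 18, 8 and 34 in PYK2 KO libraries. The levels were 9.96, 5.32 and 3.51 CPM for WT and 5.77, 2.77 and 10.1 CPM for PYK2 KO BMDMs. The highest library exceeded the lowest 3.66-fold, and both were PYK2 KO libraries. The log2 fold change of -0.03 (standard error 0.41, 95% interval -0.89 to 0.84, adjusted p = 0.999 in edgeR) leaves levels from 0.538 to 1.79 times WT inside the interval. The mice differed by 53.2% in WT and 59.5% in PYK2 KO BMDMs (coefficient of variation), against counting errors of 24.4% and 26.5%. For every 100000 counts of Fth1 there were 29.9, 14.2 and 10.3 of Tfrc in WT and 17.3, 8.18 and 32.1 in PYK2 KO libraries (difference in mean log2 ratio 0.02, two-sided exact permutation test, p = 1).

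Ireb2 (chromosome 9, 54863789 to 54912530) encodes IRP2, an iron regulatory protein that is broken down when iron is plentiful, so that its own control is largely at the protein level. It had 19, 17 and 13 counts in WT and 10, 15 and 16 in PYK2 KO libraries. This was 4.85, 4.76 and 4.56 CPM for WT and 3.21, 5.20 and 4.77 CPM for PYK2 KO BMDMs. PYK2 KO library 2 was the lowest and PYK2 KO library 3 the highest, and the spread in WT (3.20%) was below the counting error of 25.1%. The log2 fold change was -0.11 (standard error 0.30, 95% interval -0.76 to 0.53, adjusted p = 0.993 in edgeR). Aco1, whose product IRP1 binds the same hairpins when it lacks its iron-sulfur cluster, was at 68.4 CPM for WT and 63.4 CPM for PYK2 KO BMDMs, and Fbxl5, whose product marks IRP2 for breakdown when iron is present, at 46.2 and 51.6 CPM. Both were named after their values were seen, for their role beside Ireb2, and neither passed the test (log2 fold changes -0.11 and 0.17).

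**Figure D3:**
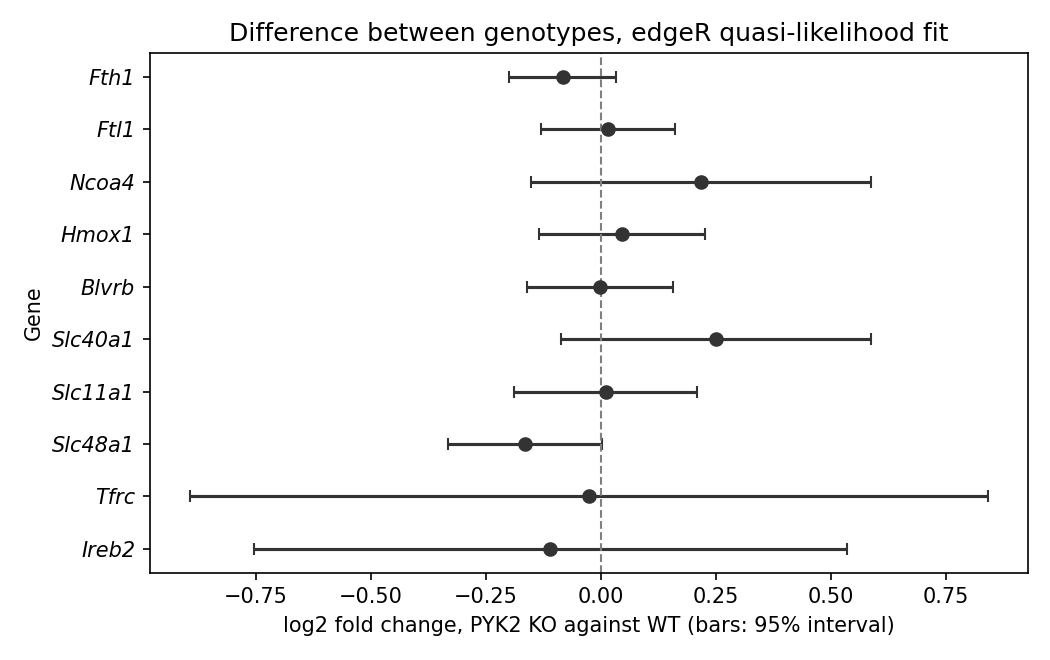
Log2 fold change of each of the 10 genes in PYK2 KO against WT BMDMs (points) with its 95% interval (bars) from the edgeR fit. All 10 intervals hold 0, that of Slc48a1 only just (-0.33 to 0.0028), and those of Tfrc and Ireb2 are the widest.

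For the 3 genes with the smallest unadjusted p-values, the 3 tested genes with the most similar profile over the 6 libraries were found by the root mean square difference of their centred log2 CPM. For Slc48a1 they were Xylt2, Rcn2 and Cotl1, at 0.014, 0.015 and 0.016. For Slc40a1 they were Esd, Cd93 and Slc8a1, at 0.053, 0.059 and 0.060, and all 3 were likewise highest in WT library 1 and PYK2 KO libraries 3 and 4. For Fth1 they were Mpg, Phf12 and Wdr11, at 0.017, 0.020 and 0.021. Over all genes the median difference was 0.19 from Slc48a1, 0.34 from Slc40a1 and 0.17 from Fth1, and with 9815 genes and 6 libraries some near matches are always found.

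Of 78 other genes of iron and heme metabolism, 58 had enough counts and none passed an adjusted p-value of 0.05 in edgeR, DESeq2 or limma voom. At an unadjusted p-value under 0.05 there were 7 of the 58, against 6.03% of all genes tested, and genotypes did not overlap in 10 of the 58, against 10.2%. Log2 fold changes were above 0 in 23 and below 0 in 35, with a median of -0.03. Over all genes tested, 4961 were above and 4854 below 0, with a median of 0.0019. Among the 20 without enough counts were genes of other tissues or settings, such as Hamp (hepcidin, the liver hormone that degrades ferroportin), Heph and Alas2 (the erythroid form of the first enzyme of heme synthesis), which had 0 counts in all libraries. A count of 0 allows up to 3 counts, or 0.766 CPM in the deepest library. Cd163, the hemoglobin scavenger receptor, had 1 to 4 counts per library, and Spic, the transcription factor of red pulp macrophages, 0 to 8.

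Uptake genes held 3 of these 7, out of 12 tested, against 6.03% of all genes tested. Hp, which encodes the hemoglobin-binding protein haptoglobin, was at 25.0, 19.3 and 20.3 CPM for WT and 30.5, 42.3 and 31.0 CPM for PYK2 KO BMDMs, higher in all 3 PYK2 KO libraries than in any WT library. Its log2 fold change of 0.67 (standard error 0.16, unadjusted p = 0.000961, adjusted p = 0.215 in edgeR) passed only when no filter on low counts was used (adjusted p = 0.00544). Haptoglobin is also stored in neutrophil granules, and of the 8 neutrophil markers 5 were tested, with log2 fold changes of 0.85 for S100a9, 1.19 for Mpo, 0.10 for S100a8, 0.19 for Ngp and -0.26 for Camp, none past the adjusted threshold. The 8 markers summed to between 107 and 157 CPM for WT and between 116 and 210.0 CPM for PYK2 KO libraries, and their part in the Hp values was not tested. Slc11a2, the transporter DMT1 that brings transferrin iron out of endosomes, was at 110 ± 2.78 CPM for WT and 89.8 ± 8.15 CPM for PYK2 KO cells (SD, n = 3 per genotype; log2 fold change -0.29, adjusted p = 0.539 in edgeR). Slc39a14, the transporter ZIP14 for iron not bound to transferrin, was at 22.1 ± 1.65 and 16.8 ± 1.69 CPM (log2 fold change -0.39, adjusted p = 0.727 in edgeR).

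Genes of heme transport (2 of 7 tested), iron chaperones (1 of 4) and mitochondrial clusters (1 of 20) held the other 4. Slc46a1, a carrier of folate that also moves heme, was at 14.5 ± 3.19 CPM for WT and 9.15 ± 1.49 CPM for PYK2 KO cells (SD, n = 3 per genotype; log2 fold change -0.64, adjusted p = 0.611 in edgeR). Pgrmc1, a heme-binding membrane protein, had a log2 fold change of -0.30, Glrx5, which passes on iron-sulfur clusters in mitochondria, one of -0.25, and Pcbp2, a cytosolic iron chaperone, one of -0.23 with the genotypes overlapping. In the 7 role groups the genes with the highest mean CPM were Lrp1 for uptake (log2 fold change 0.0016), Ndfip1 for export (-0.09), Pcbp1 for chaperones and sensing (-0.03), Hmox2 for heme transport and breakdown (-0.07), Alas1 for heme synthesis (-0.04), Bola2 for mitochondrial iron (0.09) and Nfe2l2 for transcription regulators (0.19). None of the 9 heme synthesis genes tested had an unadjusted p-value under 0.05, against 6.03% of all genes tested. The role groups are too small to compare with each other.

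**Figure D4:**
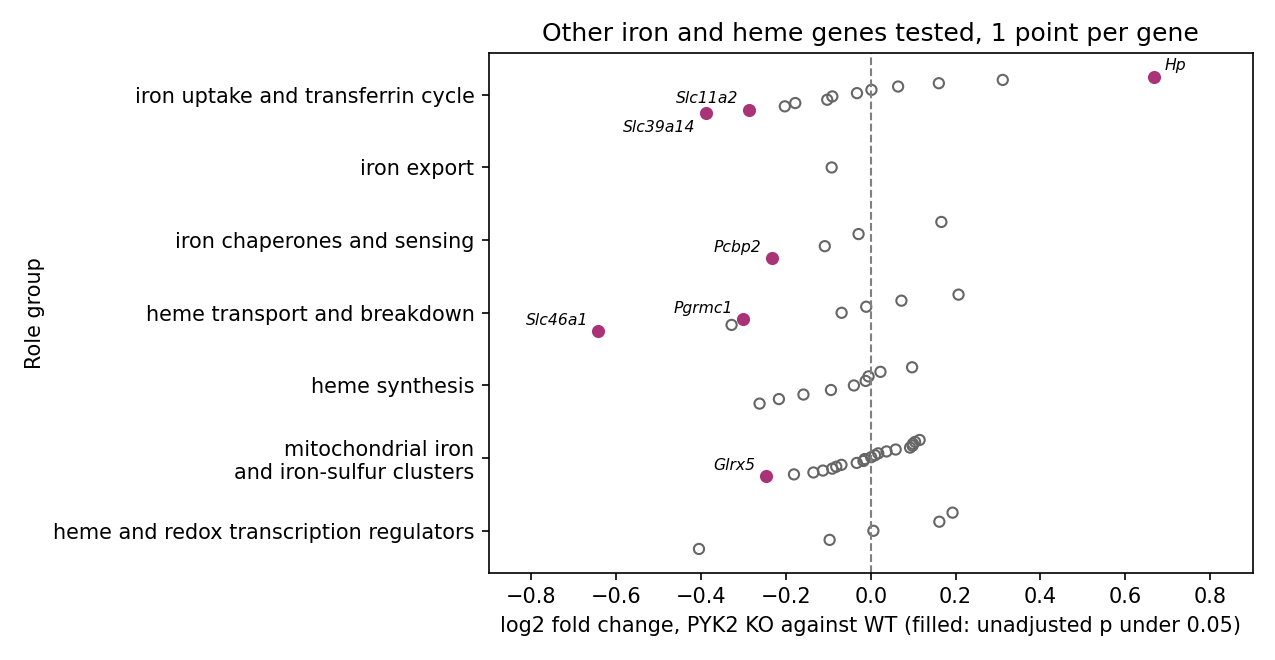
Log2 fold change in PYK2 KO against WT BMDMs of the 58 other iron and heme genes tested, 1 point per gene, in 7 role groups. Filled points with names are the 7 genes with an unadjusted p-value under 0.05, from -0.64 for Slc46a1 to 0.67 for Hp, and none passed after adjustment.

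Fth1, Ftl1, Hmox1, Slc40a1 and Blvrb are also known targets of NRF2, the factor of the oxidative stress response, and of its competitor BACH1, which heme inactivates. Nfe2l2, which encodes NRF2, was at 259 ± 58.0 CPM for WT and 295 ± 19.9 CPM for PYK2 KO cells (SD, n = 3 per genotype), and Bach1 at 9.74 and 11.0 CPM (log2 fold change 0.16, not past the test). Of 12 other NRF2 targets listed, all were tested, none passed after adjustment (0.255% of all genes did), and the median log2 fold change was 0.01 with 7 above and 5 below 0. Osgin1, an NRF2 target induced by oxidative stress, had the only unadjusted p-value under 0.05 (log2 fold change -0.33, adjusted p = 0.814 in edgeR), which is 1 of 12 against 6.03% of all genes and near that background.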

How the data were processed

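RNA-seq libraries of 6 BMDM cultures (3 WT, 3 PYK2 KO, 1 per mouse) were made by the authors with a bulk version of MARS-seq (3′ ends), then mapped and counted with the UTAP pipeline. The submitters' processing notes name cutadapt, STAR and mm10. Versions, strand setting and collapsing of molecular identifiers are not given in the sources used here, so counts may not be independent molecules. The deposited values are raw whole-number counts, 1 row per gene symbol, and 0 columns belonged to other samples.

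Counts were filtered with filterByExpr, scaled by TMM and tested on genotype with edgeR 4.0.16 in R 4.3.3 (quasi-likelihood F test, Benjamini-Hochberg adjustment over 9815 genes, threshold 0.05). Standard errors and 95% intervals came from the fold change and F, and include the spread between mice. The fit was tested on simulated counts. Ratios of counts were compared by exact permutation (scipy 1.17.1). Counting error was taken as Poisson, and this error and the limit for a count of 0 cover counting alone. Alternatives were other scalings and filters, DESeq2 1.42.0, limma 3.58.1 (voom), B2m side as a covariate, ferritin copies added to their parent gene, and leaving out each library. Positions and hairpins came from GENCODE M21 (GRCm38, the same assembly as mm10) by symbol.

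The genes, lists and tests were chosen with earlier results of these data known. The rule for named genes took all 10, Ptk2b, B2m, the other iron and heme genes or NRF2 targets with unadjusted p under 0.05, the one with the highest CPM in each role group, and 3 like genes for each of 3 members. Outside this rule, Aco1, Fbxl5, Blvra, Bach1, Cd163, Spic, Hamp, Heph, Alas2, ferritin copies and cell type markers were named for their known roles, after their values were seen. Log2 CPM for likeness used a prior count of 1.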

Additional observations from a re-analysis of the deposited data

How the results depend on the processing

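No paired analysis was possible because no replicate number occurs in both genotypes. None of the 10 genes passed under any alternative run, and the smallest adjusted p among their 139 refitted values was 0.280, for Slc40a1 without WT library 1. Of those values 125 kept their direction and 14 were reversed. Blvrb was reversed without scaling factors (0.0055) and Slc11a1 (-0.037) and Blvrb (0.017) with the side of B2m as a covariate. With one library left out, log2 fold changes ran from -0.12 to -0.03 for Fth1, -0.046 to 0.056 for Ftl1, 0.05 to 0.31 for Ncoa4, -0.029 to 0.092 for Hmox1, -0.031 to 0.034 for Blvrb, 0.10 to 0.50 for Slc40a1, -0.067 to 0.13 for Slc11a1, -0.21 to -0.12 for Slc48a1, -0.58 to 0.50 for Tfrc and -0.24 to 0.069 for Ireb2. Differences in mean log2 ratio ran from -0.16 to -0.05 for Fth1 to Ftl1, -0.46 to 0.53 for Tfrc to Fth1, -0.062 to 0.12 for Hmox1 to Blvrb and 0.11 to 0.40 for Slc40a1 to Slc11a1. Tfrc could not be fitted with at least 10 counts in every library, since 1 library had 8. Over all genes 25 passed, 159 without a filter and from 14 (without PYK2 KO library 4) to 34 with one library left out, with 15 when either WT library 5 or PYK2 KO library 2 was left out. The other iron and heme genes gave 1 call, Hp, without a filter. The causes were not tested. Counting error was at least 12.4% of the level for Tfrc, Ireb2 and Ncoa4 in each genotype. The mice differed by more than this error for Tfrc but not for Ireb2. For Ncoa4 they differed by 13.0% against 12.8% in WT, which is nearly the same, and by 18.0% against 12.4% in PYK2 KO BMDMs.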
